A study of Mus musculus with 6 samples.

Results

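The colony-stimulating factors are secreted proteins that control the production, survival and activity of myeloid cells, and 9 genes of this system were followed here through 4T1 mammary tumours. They are the ligand genes Csf1, Il34, Csf2 and Csf3 and the receptor genes Csf1r, Csf2ra, Csf2rb, Csf2rb2 and Csf3r. They were chosen by name, and all 9 were found among the 23381 genes of the deposited table. The tumours grew from 500000 cells of 4T1, a mammary carcinoma line from Balb/c mice, placed in the inguinal fat pad of Balb/c animals that the labels give as 10 weeks old. One group of 3 libraries came from tumours of mice given DMSO, the vehicle, and the other group of 3 from mice given Vismodegib, an inhibitor of the Hedgehog signal transducer Smoothened, at 2 mg per mouse 3 times a week for 3 weeks. All 6 libraries share the cell line, the host strain and the site, the host was immunocompetent, and the labels do not say that each library was a different animal, so the tests below measure the spread between these samples. Because whole tumours were sequenced, fewer cells of a type and less RNA per cell cannot be told apart.

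The system has 3 branches. CSF-1 and interleukin 34 both bind the receptor tyrosine kinase encoded by Csf1r, which monocytes and macrophages need for survival and differentiation. GM-CSF, the product of Csf2, binds an alpha chain encoded by Csf2ra together with a beta chain encoded by Csf2rb that is shared with the interleukin 3 and interleukin 5 receptors, and mice carry an additional beta chain gene, Csf2rb2, whose product serves interleukin 3. G-CSF, the product of Csf3, acts through the receptor encoded by Csf3r on granulocyte precursors and neutrophils. 4T1 tumours are known for their G-CSF output and for the expansion of granulocytes in the mice that carry them.

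Some of these transcripts differ in sequence features that matter for how such messages are regulated and counted. Messages of short-lived cytokines often carry the pentamer ATTTA in repeats in their 3′ untranslated region, where RNA-binding proteins that speed decay attach. The pentamer was searched on the sense strand of the 3′ untranslated region of the transcript with the longest coding part in GENCODE M21 (mm10), counting overlapping matches. It occurred 9 times in the 317 bases of Csf2 and 6 times in the 669 bases of Csf3. Among genes with such a region within 20% of the same length, the gene itself included, 0.0546% held at least as many as Csf2 and 1.59% at least as many as Csf3, and 37.6% and 60.3% held at least 1. For Csf2 that share of 1833 genes is Csf2 itself, so no other gene of like length held as many. Csf1 held 4 in 2111 bases, Csf1r 3 in 1669 bases and Il34 1 in 439 bases, each a common number at its length (49%, 51.1% and 47.3% of like regions held at least as many). None was found in Csf2ra, Csf2rb, Csf2rb2 or Csf3r. At least 1 was held by 89.2% of genes of like length to Csf2rb and 89.1% for Csf2rb2. For Csf2ra and Csf3r that share was 57.4%. The 30 bases with most matches are shown for the 2 genes with uncommonly high numbers, with ATTTA in capitals. They come from chr11:54247329-54247358 on the minus strand for Csf2 and chr11:98702984-98703013 on the plus strand for Csf3 (mm10).
Csf2: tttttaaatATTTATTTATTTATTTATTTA
Csf3: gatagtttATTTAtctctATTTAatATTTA
A match is a description of the letters, and the RPKM values do not measure decay.

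The beta chain genes are close copies that lie 20030 bases apart on chromosome 15. Over 2629 aligned bases of their coding sequences, 95.3% were identical and 123 differed. The longest identical coding run covered 242 bases, more than a sequenced read of 150 bases, and 3.5% of all windows of 150 bases in the longest-coding Csf2rb transcript occurred unchanged in a Csf2rb2 transcript. How the authors assigned reads that match both genes is not known from the labels, and the values of these 2 genes are uncertain to that extent. The 90 coding bases with most differences, 16 in all, are shown with the differing letters in capitals; they lie in exon 5 of Csf2rb at chr15:78338897-78338986, plus strand, and in exon 4 of Csf2rb2 at chr15:78294345-78294434, minus strand (mm10).
Csf2rb: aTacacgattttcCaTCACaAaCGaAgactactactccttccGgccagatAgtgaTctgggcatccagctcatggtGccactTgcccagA
Csf2rb2: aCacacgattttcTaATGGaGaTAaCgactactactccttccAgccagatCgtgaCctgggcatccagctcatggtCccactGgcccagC
The median coding window of that size held 3 differences.

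RPKM is the number of reads of a gene divided by its length in kilobases and by the library total, so that levels can be compared between genes. The library totals, recovered from the steps between low values, were 34800000 to 58000000 reads. Vismodegib replicate 3 had the highest total and also the most genes at 0, 5313 against 4052 to 5134 in the other libraries. The reason was not tested, and read numbers for this library are less certain. Each list of cell type markers had a summed level above 0 in every library, and no marker gene with a row was at 0 in all 6. The 6 epithelial markers summed to 1335 to 2429 RPKM with vehicle and 2039 to 2180 RPKM with Vismodegib, and the 13 macrophage and monocyte markers to 1389 to 2366 and 868 to 2848 RPKM. The 12 neutrophil markers summed to 68.7 to 386 RPKM with vehicle and 107 to 247 RPKM with Vismodegib, with Ly6g, Ngp, Camp and Elane at 0 in DMSO replicate 2 and Vismodegib replicate 3. Fat, muscle and fibroblast markers were uneven: their sums ran from 4.49 to 14.7, 8.65 to 126 and 61.9 to 77 RPKM in DMSO and from 7.86 to 30.8, 70.8 to 136 and 74.8 to 183 RPKM in Vismodegib, and their part in the results below was not tested.

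Csf3 was the most abundant of the 9 transcripts. It averaged 47.9 RPKM over the 6 libraries, above 95.7% of all genes in the table. Csf1r followed at 14.3 RPKM, Il34 at 9.44, Csf1 at 7.13 and Csf2 at 4.74. The remaining receptor genes were lower, at 1.67 RPKM for Csf3r, 1.4 for Csf2rb2, 0.986 for Csf2rb and 0.872 for Csf2ra. Each gene's range over the 6 libraries overlapped that of the next in this order, but within libraries Csf1r was above Il34 in 6 of 6 and Csf2 was above Csf3r in 6 of 6. Csf3 was above Csf1r in 5 of 6, DMSO replicate 1 being the exception, and Csf2rb2 was above Csf2rb in 4 of 6.

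**Figure D1:**
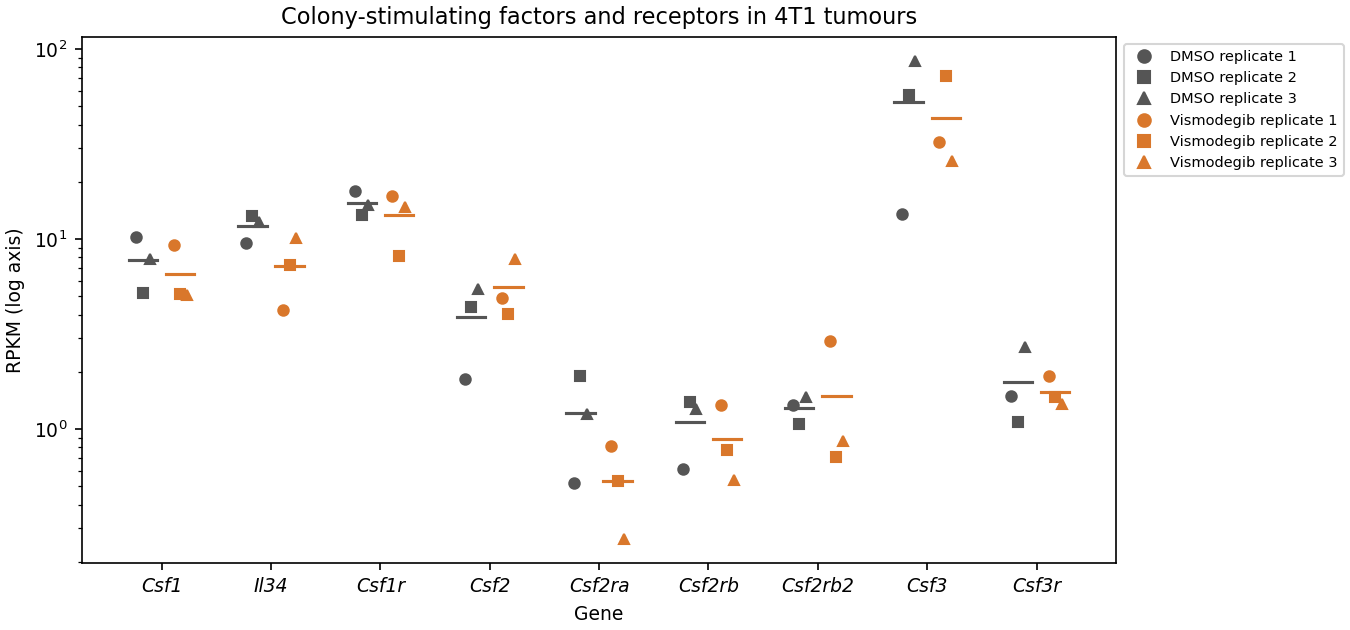
RPKM of the 9 genes on a log axis, 1 point per library (grey, DMSO; orange, Vismodegib; the marker shape gives the replicate number), with a bar at each group mean. Csf3 lies between 13.6 and 86.7 RPKM and Csf2ra between 0.264 and 1.91 RPKM, and for each of the 9 genes the groups overlap.

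The Vismodegib and DMSO tumours were compared to ask whether these transcripts differed with the drug. Whether Smoothened was blocked in these tumours was not tested. None of the 9 genes passed limma's test over all 11818 genes tested (smallest adjusted p = 1), where 0% of genes passed. None reached an unadjusted p under 0.05, against 2.25% of all genes tested (1.94% higher and 0.313% lower), and none had groups without overlap, against 5.03%. In 7 of the 9 the difference was below 0, with a median of -0.20 in log2(RPKM + 0.5), Vismodegib minus DMSO. Over all genes tested 41.6% were below 0 and the median was 0.05. The count below 0 was 5 to 7 when a library was left out. It was 8 with a pseudocount of 0.1, with median-ratio scaling and with quantile scaling, and 9 with library weights. With a filter at 1 RPKM, which left out Csf2ra and Csf2rb, it was 5. Under both scalings the median of all genes tested was -0.01. In the main comparison the 7 genes were Csf1, Il34, Csf1r, Csf2ra, Csf2rb, Csf3 and Csf3r. Csf2 was above 0 and Csf2rb2 at 0.00.

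**Figure D2:**
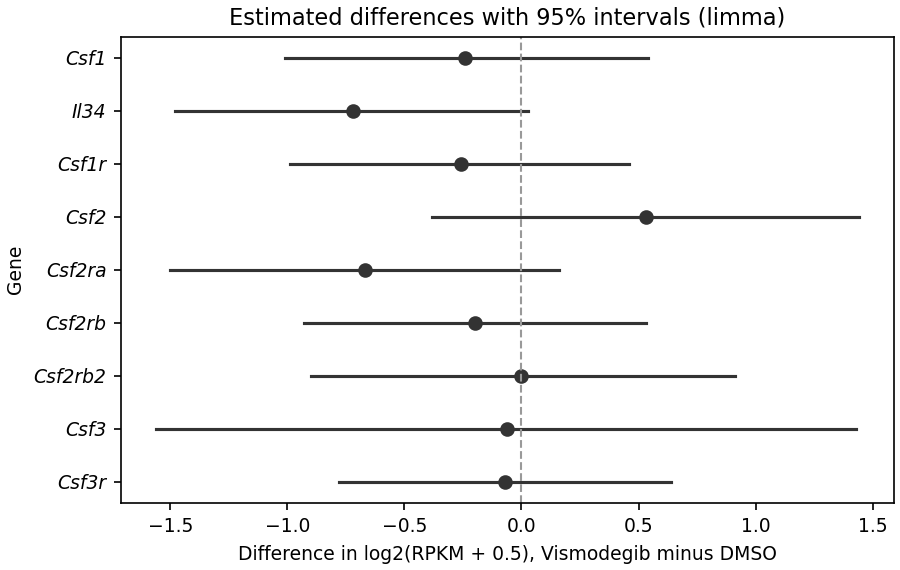
Difference in log2(RPKM + 0.5), Vismodegib minus DMSO, for each gene (point) with limma's 95% interval (line), from 3 libraries per group. Each of the 9 intervals includes 0; that of Il34 runs from -1.48 to 0.03 and that of Csf3, the widest, from -1.56 to 1.43.

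In the Csf1r branch, Il34 had the largest difference of the 9 genes on the log2(RPKM + 0.5) scale, but with a pseudocount of 0.1 Csf2ra was further from 0 (-0.98 against -0.76 for Il34). Il34 encodes interleukin 34, the ligand on which microglia and Langerhans cells depend (ENSMUSG00000031750.15, chromosome 8, 110741829 to 110805924, minus strand). It measured 9.51, 13.2 and 12.3 RPKM with vehicle and 4.24, 7.26 and 10.1 RPKM with Vismodegib, the values of a group standing in the order of replicates 1, 2 and 3 here and throughout. Of the 9 pairs of a treated and a control library, the treated one was lower in 8, the overlap being Vismodegib replicate 3 above DMSO replicate 1. The group means were 11.7 ± 1.93 and 7.2 ± 2.93 RPKM (SD, n = 3 each), and the log2 difference was -0.72 (SE 0.334), with adjusted p = 1 by limma. An exact two-sided permutation test gave p = 0.2, where 3 against 3 cannot go below 0.1. The antisense gene Gm15894 that overlaps Il34 was at no more than 0.034 RPKM. Gm15895, also antisense to Il34, had no row, so its level is not known.

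Csf1, which encodes the ligand that sustains most tissue macrophages, showed a smaller difference (ENSMUSG00000014599.10, chromosome 3, 107741048 to 107760469, minus strand). It measured 10.2, 5.17 and 7.85 RPKM with vehicle and 9.31, 5.16 and 5.09 RPKM with Vismodegib. Replicate 1 was the highest library in each group, and replicate 2 of both groups and Vismodegib replicate 3 lay within 0.1 RPKM of each other. The log2 difference was -0.24 (95% interval -1.01 to 0.54; exact permutation p = 0.5).

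Csf1r, the receptor for both ligands and a defining transcript of the macrophage lineage, lay at similar levels in 5 of the 6 tumours (ENSMUSG00000024621.16, chromosome 18, 61100598 to 61132149, plus strand). It measured 17.9, 13.3 and 15 RPKM with vehicle and 16.9, 8.09 and 14.8 RPKM with Vismodegib. Hmgxb3, which overlaps Csf1r on the other strand, was at 0.0892 to 0.729 RPKM. The library lowest in Csf1r, Vismodegib replicate 2, also had the lowest sum of macrophage and monocyte markers, 868 RPKM. C1qa alone gave 606 RPKM of that sum. C1qa, C1qb, C1qc, Fcgr1 and Lyz2 were lowest in this library. Adgre1, Cd68, Mrc1, Mertk, Cd163, Ly6c2, Ccr2 and Cx3cr1 were lowest in other libraries. The difference in Csf1r was -0.26 (95% interval -0.99 to 0.46, exact permutation p = 0.6), and it was 0.05 without Vismodegib replicate 2.

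Compared with those markers, Csf1r was lower in each treated library. The log2 value of Csf1r minus the mean log2 value of the 13 macrophage and monocyte markers was 0.39, 0.51 and 0.47 in DMSO and 0.08, 0.19 and 0.26 in Vismodegib. The groups did not overlap, and the difference of -0.28 had exact permutation p = 0.1, the smallest that the design allows, and p = 0.4 after adjustment over the 4 relative levels compared. Leaving out a library gave -0.32 to -0.23. Under other summaries of the markers, chosen after seeing the data, the groups overlapped. With the 2 markers under 0.5 RPKM left out the difference was -0.26 (exact permutation p = 0.2), with the median of the list it was -0.27 (exact permutation p = 0.3), and against C1qa, C1qb and C1qc alone, the complement genes abundant in tissue macrophages, the difference was -0.12 (exact permutation p = 0.8).

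The balance of the 2 ligands varied from tumour to tumour. The RPKM ratio of Csf1 to Il34 was 1.07, 0.391 and 0.638 in DMSO and 2.19, 0.711 and 0.504 in Vismodegib. Il34 was the more abundant ligand in 4 of 6 libraries, and Csf1 in replicate 1 of each group. The difference in the log2 ratio was 0.49 (exact permutation p = 0.6, adjusted p = 0.933), and it was -0.09 without Vismodegib replicate 1.

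**Figure D3:**
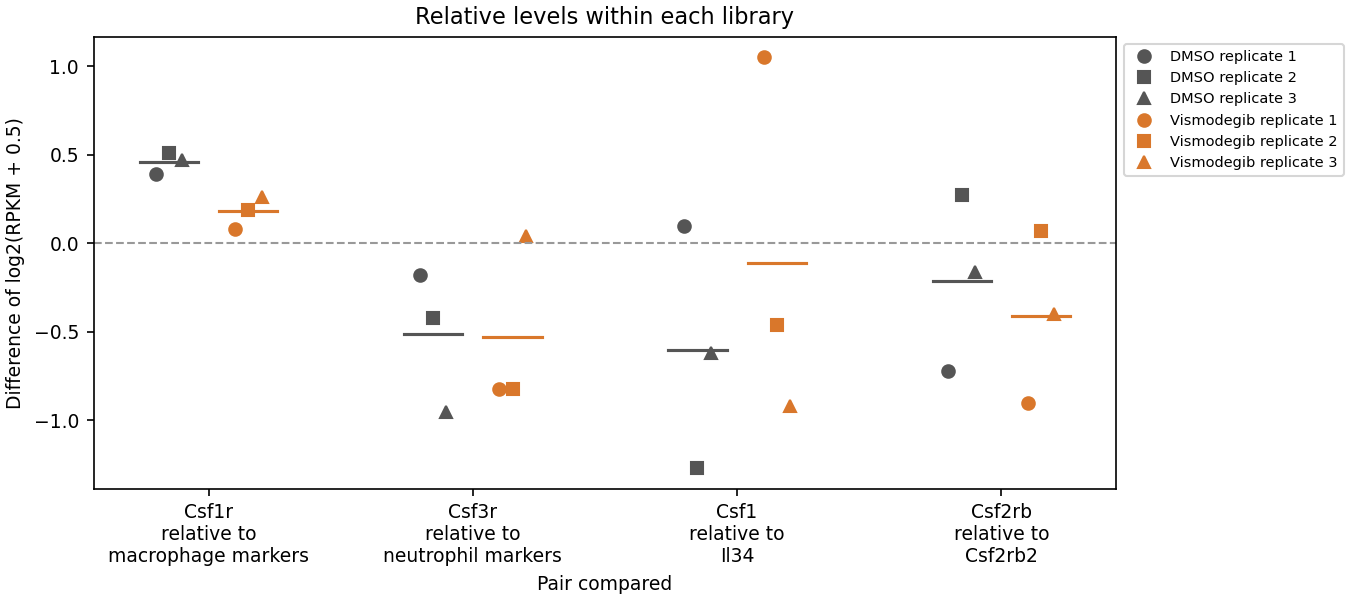
Difference of log2(RPKM + 0.5) within each library for 4 pairs, 1 point per library (grey, DMSO; orange, Vismodegib; the marker shape gives the replicate number), with a bar at each group mean. Csf1r relative to macrophage markers is 0.39 to 0.51 in DMSO and 0.08 to 0.26 in Vismodegib, and the other 3 pairs overlap between the groups.

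In the GM-CSF branch the ligand and its alpha chain lay on opposite sides of 0. Csf2, which encodes GM-CSF (ENSMUSG00000018916.5, chromosome 11, 54247271 to 54249667, minus strand), measured 1.84, 4.38 and 5.44 RPKM with vehicle and 4.89, 4.04 and 7.87 RPKM with Vismodegib. DMSO replicate 1 was the lowest library, and Vismodegib replicate 3 the highest. For a transcript of 800 bases these values rest on 55 to 365 reads. The log2 difference was 0.53 (95% interval -0.38 to 1.44; exact permutation p = 0.5). It was 0.13 without DMSO replicate 1.

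Csf2ra encodes the alpha chain, which binds GM-CSF alone with low affinity (ENSMUSG00000059326.7, chromosome 19, 61223957 to 61228429, minus strand). It measured 0.521, 1.91 and 1.2 RPKM with vehicle and 0.812, 0.53 and 0.264 RPKM with Vismodegib, or 35 to 151 reads at a length of 2277 bases. The highest value was in DMSO replicate 2 and the lowest in Vismodegib replicate 3, while DMSO replicate 1 lay among the treated libraries. The log2 difference was -0.67 (SE 0.364; 95% interval -1.50 to 0.16), with adjusted p = 1 by limma and an exact permutation p = 0.3. It was -1.0 when DMSO replicate 1 was left out (adjusted p = 0.352 by limma) and -0.38 when DMSO replicate 2 was. In Vismodegib replicate 3, where the ligand was highest and the alpha chain lowest, the RPKM ratio of Csf2 to Csf2ra was 29.8, against 2.29 to 7.62 in the other 5 libraries.

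Csf2rb, the signalling chain of the GM-CSF, interleukin 3 and interleukin 5 receptors (ENSMUSG00000071713.6, chromosome 15, 78325752 to 78353847, plus strand), measured 0.616, 1.38 and 1.27 RPKM with vehicle and 1.34, 0.778 and 0.538 RPKM with Vismodegib. The ranges lay almost on top of each other, and the difference was -0.20 (95% interval -0.93 to 0.53; exact permutation p = 0.6). Csf2rb2 (ENSMUSG00000071714.7, chromosome 15, 78282507 to 78305721, minus strand) measured 1.33, 1.06 and 1.48 RPKM with vehicle and 2.92, 0.716 and 0.869 RPKM with Vismodegib. The treated tumours held both the highest and the lowest values, and the difference was 0.00 (95% interval -0.90 to 0.91; exact permutation p = 1). It ran from -0.47 without Vismodegib replicate 1 to 0.28 without Vismodegib replicate 2. The RPKM ratio of Csf2rb to Csf2rb2 was 0.462, 1.3 and 0.855 in DMSO and 0.458, 1.09 and 0.619 in Vismodegib. Replicate 1 had the lowest ratio and replicate 2 the highest in both groups, and the log2 ratio differed by -0.20 (exact permutation p = 0.7, adjusted p = 0.933).

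The other genes of the beta chain family were represented mainly by Il3ra, which encodes the interleukin 3 receptor alpha chain. It measured 45.7, 6.75 and 17.4 RPKM with vehicle and 27.3, 19.8 and 28.1 RPKM with Vismodegib (log2 difference 0.48, SE 0.579). The treated libraries lay inside the range of the controls, and the difference was -0.19 without DMSO replicate 2. Il5 and Il5ra, the ligand and alpha chain of the eosinophil growth factor system, were at no more than 0.0224 and 0.0269 RPKM, and Il3 was not analysed here.

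In the G-CSF branch the ligand varied more between tumours of a group than it differed between the groups. Csf3 (ENSMUSG00000038067.2, chromosome 11, 98701263 to 98703629, plus strand) measured 13.6, 57.4 and 86.7 RPKM with vehicle and 32.5, 71.7 and 25.8 RPKM with Vismodegib. DMSO replicates 1 and 3 were the lowest and the highest library, 6.39-fold apart, and the treated tumours lay between them. The values rest on 718 to 4958 reads at a length of 1413 bases. The standard deviation within groups was 1.12 on the log2 scale, above that of 97.5% of all genes tested. The group means were 52.6 ± 36.8 and 43.3 ± 24.8 RPKM, and the log2 difference was -0.06 (95% interval -1.56 to 1.43; exact permutation p = 1). Without single libraries it ran from -0.84, without DMSO replicate 1, to 0.48, without DMSO replicate 3.

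Csf3r, the G-CSF receptor (ENSMUSG00000028859.14, chromosome 4, 126024550 to 126044440, plus strand), measured 1.49, 1.09 and 2.69 RPKM with vehicle and 1.91, 1.47 and 1.35 RPKM with Vismodegib. DMSO replicate 3 was highest and DMSO replicate 2 lowest. The difference was -0.07 (95% interval -0.78 to 0.64; exact permutation p = 0.8). The RPKM ratio of ligand to receptor was lowest in DMSO replicate 1, at 9.08, and highest in DMSO replicate 2, at 52.6. DMSO replicate 3, the library highest in both Csf3 and Csf3r, also had the highest sum of the 12 neutrophil markers, 386 RPKM. Relative to the mean log2 value of those markers, Csf3r was at -0.18, -0.42 and -0.95 in DMSO and at -0.82, -0.82 and 0.04 in Vismodegib, with a difference of -0.02 (exact permutation p = 1, adjusted p = 1).

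**Figure D4:**
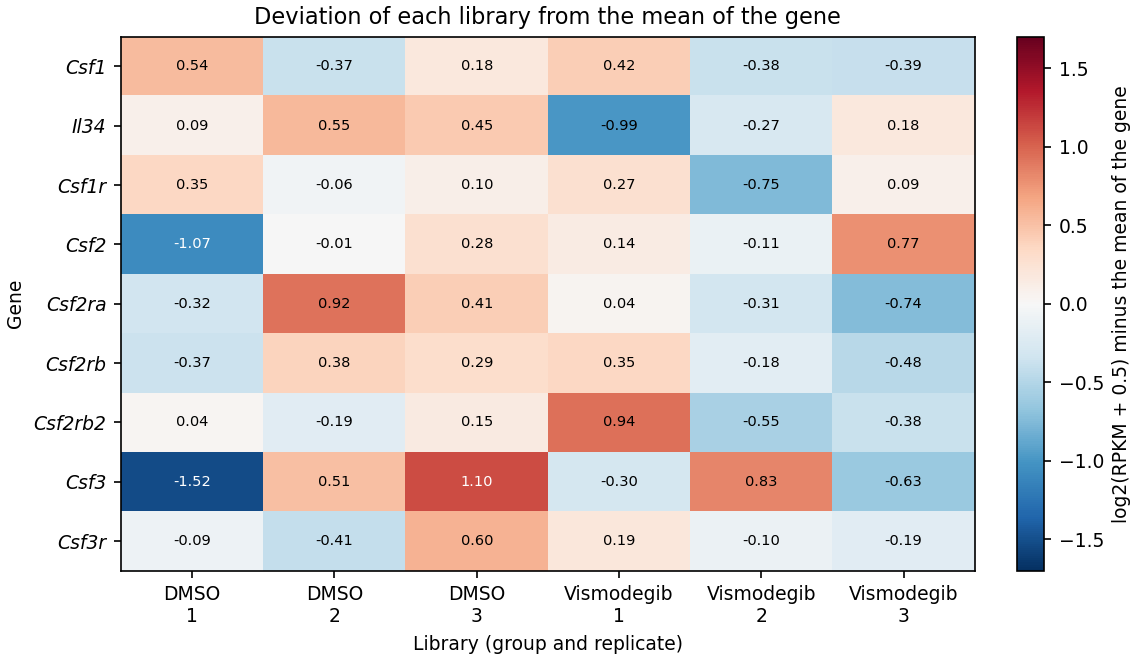
Deviation of each library from the gene's own mean in log2(RPKM + 0.5), with genes in rows, libraries in columns and red above the mean. Csf3 is lowest in DMSO replicate 1, at -1.52, and highest in DMSO replicate 3, at 1.10, while Csf1r departs by more than 0.5 only in Vismodegib replicate 2, at -0.75.

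The library patterns of the 9 genes were set against all other genes that averaged 0.5 RPKM or more, by the root mean square difference between profiles centred on each gene's mean of log2(RPKM + 0.5) over the 6 libraries. Those closest to Csf1r were Nfam1, Themis2 and Lat, at 0.04, 0.06 and 0.08. Csf1 was closest to Il21r, Rassf5 and Cdc42ep2 (0.09, 0.12 and 0.12) and Il34, at a greater distance, to Slc29a2, Misp and Lrrc47 (0.20, 0.22 and 0.24). Csf2 was nearest to Sorcs2, Sfn and Ip6k3 (0.18, 0.23 and 0.24), Csf2ra to genes that included Aaas and P2ry6 (0.12 and 0.13) and Csf2rb to Nfic, Slc31a1 and Cpne2 (0.05, 0.06 and 0.06). Csf2rb2 was nearest to Clec5a, Gstp3 and Mcemp1 (0.13, 0.13 and 0.14). Csf3 was nearest to Acsbg1, Atg9b and Fam110c (0.16, 0.24 and 0.25) and Csf3r to Nfatc2ip, Septin4 and Tent5c (0.04, 0.06 and 0.06). None of the 9 genes was among the 3 nearest of another. Of the 27 neighbours, 5 to 11 were among the 3 nearest when a library was left out, so the names depend on single libraries.

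Downstream of the receptors, 26 genes of kinases, adaptors, STAT factors, phosphatases and feedback inhibitors were tested. None passed limma's test over all genes, 18 were above 0 and 8 below, and the median was 0.07 beside 0.05 for all genes tested. This median ran from -0.09 to 0.16 when a library was left out and was -0.16 with library weights. The 3 genes of smallest p by limma in the list follow. Plcg2, the phospholipase that CSF-1 receptor signalling uses in macrophages, measured 13.3, 14 and 12.8 RPKM with vehicle and 20.5, 17.9 and 19.6 RPKM with Vismodegib. It was the only gene of the list whose groups did not overlap; 4.29% of all genes tested did so in this direction. Its log2 difference was 0.51 (SE 0.228, adjusted p = 1 by limma). Socs1, a feedback inhibitor of JAK signalling, measured 16.3, 34.4 and 35.5 RPKM with vehicle and 18.2, 9.41 and 11.5 RPKM with Vismodegib, a difference of -1.09 (SE 0.378, unadjusted p = 0.019 and adjusted p = 1 by limma). With library weights, where 420 of the 11818 genes passed, so did Socs1 (-1.50, adjusted p = 0.0206 by limma). Those weights were 0.319, 0.316 and 7.28 for the DMSO replicates, so the control mean rested mostly on DMSO replicate 3. Socs2, an inhibitor induced through STAT5, had a difference in the other direction, 0.64, with means of 0.877 ± 0.461 RPKM under vehicle and 1.58 ± 0.345 RPKM under Vismodegib.

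Among 10 genes that GM-CSF is known to induce in myeloid cells, 5 were above 0 and 5 below, with a median of 0.01, and none passed. The median ran from -0.21 to 0.25 when a library was left out and was -0.36 with library weights. Ccl24 was picked out because it had the smallest p by limma in this list. Ccl24, an eosinophil-attracting chemokine, measured 16.9, 32.1 and 25.5 RPKM with vehicle and 12.6, 7.9 and 6.76 RPKM with Vismodegib. Each treated library was below each control, as in 0.745% of all genes tested, and the difference was -1.40 (unadjusted p = 0.00257, adjusted p = 1 by limma). Ccl24 too passed with library weights (-1.44, adjusted p = 0.0138 by limma), among 420 of all genes tested and with most control weight on DMSO replicate 3. Ccl22, a chemokine of dendritic cells and macrophages, had overlapping groups at 0.951 ± 0.143 and 1.46 ± 0.871 RPKM.

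The 11 tested transcription factors of myeloid cells had a median of -0.09, with 4 above 0 and 7 below and no call, and the median was 0.21 without Vismodegib replicate 2. Irf8, which directs monocyte and dendritic cell fate, averaged 12 ± 4.44 RPKM with vehicle and 9.02 ± 2.44 RPKM with Vismodegib, and Klf4 and Runx1 had differences of 0.32 and 0.19. Of 8 tested inducers of these cytokines and other binding partners, 5 were above 0 and 3 below, with a median of 0.07 and no call. Il1b, a cytokine that induces G-CSF and GM-CSF, averaged 16.2 ± 7.89 RPKM with vehicle and 26.1 ± 13.6 RPKM with Vismodegib. Nfkb1, a subunit of NF-kB, was at 7.84 ± 3.95 and 4.61 ± 1.58 RPKM. Sdc1, the proteoglycan syndecan 1, which also binds interleukin 34, was at 40.5 ± 22.8 and 57 ± 16.3 RPKM. In these 3 genes the groups overlapped. Ptprz1, the other receptor of interleukin 34, was too low to be tested, and Il17a was not analysed here.

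Cells that carry these receptors were compared through their markers in the same way. Of the macrophage and monocyte markers 11 were tested, 6 above 0 and 5 below, with a median of 0.07 that ran from -0.26 to 0.43 when a library was left out. Of the neutrophil markers 8 were tested, 2 above and 6 below, with a median of -0.30 and a range from -0.61 to 0.42 in the same check. None passed in either list. With library weights the median was -0.23 for the macrophage and monocyte markers and -1.17 for the neutrophil markers. Most control weight was then on DMSO replicate 3. Only 2 of 8 dendritic cell markers and 2 of 8 markers of eosinophils, basophils and mast cells were high enough to be tested.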

How the data were processed

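The authors deposited RPKM values per gene symbol for 6 libraries. The build was mm10, and the software comprised STAR, HISAT2, Partek, SAMtools, cutadapt and bcl2fastq 2.17, per the submitters' processing notes. What each did, and whether counting used strand, is not given in the sources used here, so overlapping antisense genes (at Il34, Csf1r and Csf2) are uncertain. Totals were recovered from value steps in 6990 genes with 1 GENCODE M21 transcript: 83.6% to 85.3% of low values, up to 20 reads, were whole within 0.02 reads. A total too high by a whole-number factor would go unnoticed, and whether reads or pairs were counted is not stated. Reads per gene use the longest transcript.

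Genes that averaged 0.5 RPKM or more entered limma 3.58.1 (R 4.3.3) as log2(RPKM + 0.5) (eBayes with trend, group only, two-sided, Benjamini-Hochberg over 11818 genes); this scale understates changes of low genes. Exact permutation tests listed every split of the libraries, and SciPy 1.17.1 adjusted those of the relative levels. Of 15 gene lists with 144 entries, Il3 and Il17a had no row. Named genes were the 9 members, their 3 nearest profiles (1 is not reported here) and up to 3 genes of smallest p in each of 5 pathway lists. Members and lists were chosen with earlier results of these data known. Alternatives covered each library left out, pseudocount, filter, scaling, library weights, robust estimation and a replicate block; other marker summaries were added after seeing the data. The limma fit was tested on simulated data, and the exact tests on small made-up sets of values.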

Additional observations from a re-analysis of the deposited data

How the results depend on the processing

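None of the 9 genes passed under any alternative; the nearest was Il34 with library weights (difference -0.88, adjusted p = 0.053 by limma). The number of genes passing over the whole table was 420 with library weights, 1 with the replicate number as a block (Fam25c) and 19 without DMSO replicate 1, and ran from 0 to 19 without single libraries. The library weights were 0.319, 0.316 and 7.28 for DMSO and 1.26, 2.34 and 0.461 for Vismodegib, so weighted results rest mostly on DMSO replicate 3 for the controls. The count at an unadjusted p under 0.05 was 638 with no filter, 2732 with library weights, and 132 to 1221 without single libraries. Csf3 and Csf3r stood at -0.66 and -0.55 with library weights, against -0.06 and -0.07 with equal weights. With library weights the difference was -0.14 for Csf2, -0.02 for Ccl22, -0.15 for Runx1 and -0.06 for Sdc1, against values above 0 with equal weights, and Socs1 (-1.50, adjusted p = 0.0206 by limma) and Ccl24 (-1.44, adjusted p = 0.0138 by limma) passed. Leaving out single libraries moved Csf1r between -0.46 and 0.05, Csf3 between -0.84 and 0.48 (0.18, 0.48, 0.07 and 0.24 without DMSO replicates 2 and 3 and Vismodegib replicates 1 and 3), Csf3r between -0.29 and 0.21 (0.01 without Vismodegib replicate 3) and Il3ra between -0.19 and 1.15. It moved Csf3r relative to neutrophil markers between -0.30 and 0.15 (0.03 without DMSO replicate 2, 0.13 without Vismodegib replicate 1 or 2), Csf1 relative to Il34 between -0.09 and 0.89 and Csf2rb relative to Csf2rb2 between -0.46 and 0.04 (0.03 without DMSO replicate 2). With the median of the neutrophil list in place of the mean, Csf3r stood at 0.44. The cause of these changes was not tested. Il34 (-0.99 to -0.41), Csf2ra (-1.0 to -0.38), Csf2 (0.13 to 0.80) and Csf1r relative to macrophage markers (-0.32 to -0.23) kept their direction without each library, while Csf1 (-0.50 to -0.02) and Csf2rb (-0.44 to -0.01) came close to 0. Same-numbered libraries had correlations of deviations of 0.00317, 0.0379 and -0.305, and differently numbered ones -0.231 to 0.303. These values cannot settle whether the replicate number pairs the samples, because pairing is a matter of the design. In this layout a replicate block leaves each difference as it was and changes only its error. At 35 to 151 reads, Csf2ra is the gene that depth limits most.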
